A study of Mus musculus with 23 samples.

Results

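Hepatic transcript levels of 6 *Pxr*-/- PCN mice were compared with those of 5 WT PCN mice, which are 11 of the 23 arrays of the series, to ask how the genotypes differed when both had received the ligand. The arrays were chosen by the labels for genotype and treatment, not by any measured value. All mice were C57Bl6/J males. The WT mice were purchased at 6 weeks of age and acclimatized for 2 weeks, and the *Pxr*-/- mice had been backcrossed and bred for 10 years in the facility, so that genotype and colony cannot be told apart. The age of the *Pxr*-/- mice was not given in the sources used here. Both groups received pregnenolone 16α-carbonitrile (PCN) in corn oil by daily intraperitoneal injection at 100 mg/kg for 4 days. They were killed at Zeitgeber time 6, that is 6 h after the last injection. The labels give the fed state, whereas the paper describes the mice as semi-fasted at this time. The vehicle groups, 6 WT CONT and 6 *Pxr*-/- CONT mice given corn oil alone, were handled alike and were used as the background of the genotype difference. A sixth WT PCN mouse of the design was not analysed here.

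The pregnane X receptor (PXR, gene *Nr1i2*) is a nuclear receptor of liver and intestine that binds drugs, bile acids and steroids, and PCN is its classical rodent ligand. Bound to DNA together with the retinoid X receptor, it raises the transcription of enzymes and transporters that oxidize, conjugate and export foreign compounds. Its response elements are pairs of short half-sites related to AGTTCA or AGGTCA, arranged as direct or everted repeats with a fixed spacer. The constitutive androstane receptor (CAR, gene *Nr1i3*) binds related elements and shares many targets.

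Promoters were searched for direct repeats with a spacer of 3 or 4 bases and for everted repeats with a spacer of 6. The genomic stretch before *Cyp3a11*, the main drug-oxidizing P450 of the mouse liver and the usual readout of PXR, is shown because it held the 1 such match among the genes lower in *Pxr*-/- PCN livers. It is the 250 bases before the transcription start in the RefSeq annotation (GRCm38.p6, chr5:145879855-145880104, minus strand, printed 5′ to 3′ along the gene). The longer run of capitals marks a direct repeat with a spacer of 4 bases (DR4, AGNTCA repeated on one strand, where N is any base), 172 to 157 bases before the start, and the shorter one the half-site AGTTCA read on the opposite strand, 142 to 137 bases before the start.

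*Cyp3a11*: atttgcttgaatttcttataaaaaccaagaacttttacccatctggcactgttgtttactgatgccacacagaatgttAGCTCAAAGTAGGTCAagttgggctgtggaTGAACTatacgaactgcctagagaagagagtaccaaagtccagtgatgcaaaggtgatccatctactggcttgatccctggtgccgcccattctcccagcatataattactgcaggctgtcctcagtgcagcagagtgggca

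The array read this gene with a probe of 60 bases whose position spans an intron (mm9, chr5:146672058-146673925, 1868 bases), so that it lay in 2 exons of the coding part of the transcript.

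*Cyp3a11* probe: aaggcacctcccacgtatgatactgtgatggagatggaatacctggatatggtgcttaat

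A second pair of promoters is shown because *Akr1b7*, an aldo-keto reductase, and *Cyp26a1*, which degrades retinoic acid, were lower in *Pxr*-/- PCN livers and differed in their half-sites. Capitals mark AGGTCA on the opposite strand in *Akr1b7* (chr6:34412112-34412361, plus strand), 248 to 243 bases before the start. In *Cyp26a1* (chr19:37697558-37697807, plus strand) they mark AGTTCA on the opposite strand at 32 to 27 and again at 21 to 16 bases before the start. Both *Cyp26a1* half-sites run the same way, as a direct repeat with a spacer other than those searched for.

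*Akr1b7*: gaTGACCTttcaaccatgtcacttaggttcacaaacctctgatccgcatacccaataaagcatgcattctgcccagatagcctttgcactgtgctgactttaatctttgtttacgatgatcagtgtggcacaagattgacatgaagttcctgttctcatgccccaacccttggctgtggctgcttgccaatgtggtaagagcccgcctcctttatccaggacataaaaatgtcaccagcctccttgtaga

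*Cyp26a1*: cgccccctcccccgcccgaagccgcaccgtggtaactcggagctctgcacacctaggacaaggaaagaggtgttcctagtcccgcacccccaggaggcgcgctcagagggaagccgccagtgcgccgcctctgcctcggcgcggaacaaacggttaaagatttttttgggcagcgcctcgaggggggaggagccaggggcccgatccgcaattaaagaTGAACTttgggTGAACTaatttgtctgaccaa

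The same letters were counted on both strands of every RefSeq promoter with a gene symbol, from 250 bases before to 50 bases after the start. Of 27025 promoters, 15.7% held AGTTCA, 18.1% held AGGTCA and 0.144% held the DR4. A direct repeat with a spacer of 3 bases was found in 0.0814% and an everted repeat with a spacer of 6 bases (TGANCT and then AGNTCA) in 0.0370%. Each repeat contains half-sites, so these counts overlap. Called genes come from the tested genes, of which 12447 had a promoter in the table. Of those promoters, 12.6% held AGTTCA, 16.3% held AGGTCA and 0.0884% held the DR4. Among the genes lower in *Pxr*-/- PCN livers, 191 of 288 had a promoter in the table, of which 14.7% held AGTTCA, 23.04% held AGGTCA and 1, that of *Cyp3a11*, held the DR4. Among the 97 promoters of genes that were higher, the shares were 20.6% and 24.7%, with 0 of the repeats. These are counts of letters in a short window and were not tested.

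Each array measured total liver RNA labelled with Cy3 on an Agilent 1-colour array, and values are normalized log2 signals, so that a difference of 1 is a doubling. In bulk tissue, fewer cells of a type and less RNA per cell cannot be told apart. These 11 arrays each detected 30037 to 33321 of 56605 probes well above background. Before normalization, the *Pxr*-/- PCN arrays were dimmer than the WT PCN arrays over the probes kept for the tests, at 8.45 ± 0.07 (SD, n = 6) against 8.65 ± 0.09 (n = 5) mean log2 signal. Their ranges did not overlap, and the difference of -0.20 had the smallest p that the design allows (two-sided exact permutation test, p = 0.0022). Over all probes the ranges overlapped at 6.96, and the difference was -0.14 (p = 0.0043 by the same exact test). Normalization takes such a shift away, and differences are relative to the probes of an array as a whole. WT PCN replicate 4 stood apart from its group: 1.80% of its probes were more than 2-fold from the mean of the other 4 arrays, against 0.396% to 0.760% for each of these, and results that rest on it are given with and without it. All 12 hepatocyte markers were measured, their mean signal running from 16.70 to 16.79 on WT PCN arrays and from 16.93 to 17.05 on *Pxr*-/- PCN arrays, without overlap, and the part of this shift in the results was not tested.

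The probe of the deleted gene did not separate the genotypes. *Nr1i2* (mm9, chr16:38248745-38248804) read 12.18, 12.46, 12.07, 11.78 and 11.99 in WT PCN livers and from 11.05 to 12.41 with a median of 12.06 in *Pxr*-/- PCN livers. The ranges overlapped, and the difference was -0.23 ± 0.29 (SE; limma, adjusted p = 0.683). Where this probe lies relative to the deleted part of the gene was not given in the sources used here. The genotypes were therefore taken as labelled, and the large differences of PXR readouts described next run with these labels.

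A gene was called when its adjusted p was at most 0.05 and its fold above 1.5. Of 21183 genes tested, 288 (1.36%) were lower and 154 (0.727%) were higher in *Pxr*-/- PCN than in WT PCN livers. The lower genes differed by more: their median difference was -0.86 and 110 of them exceeded 2-fold, 25 exceeded 4-fold and 12 exceeded 8-fold, whereas the higher genes had a median of 0.74, 32 beyond 2-fold and 0 beyond 4-fold. Under vehicle, the same genotypes differed in 17 lower genes (0.0803%) and 48 higher genes (0.227%). The difference between the genotype differences, that is the PCN difference minus the vehicle difference, was called in 171 lower (0.807%) and 51 higher genes (0.241%), 1.05% of the genes tested. Among the 288 lower genes, 118 (41.0%) were also called in that test, and in 243 (84.4%) the mean of WT CONT livers lay nearer to *Pxr*-/- PCN than to WT PCN livers. Among the 154 higher genes these numbers were 27 (17.5%) and 99 (64.3%). Both counts use the PCN values by which these genes were called. The share of nearer means over all genes was not computed, so that count is a description and no test. The split between higher and lower genes depended on the scaling: higher genes made up 34.8% of the calls here, 5.005% with the deposited log2 values (55 higher and 1044 lower) and 50% with 75th percentile scaling of the processed signal (324 and 324). In the deposited values, normalized otherwise, the median of all genes was -0.19, and in each of these settings every one of the called genes found kept its sign. The call itself was kept by 339 of the 440 found in the deposited values and by 396 of 442 in the processed signal. Without WT PCN replicate 4, 229 genes were lower and 104 were higher, and 297 of the 442 calls remained. Within washing batch 1 there were 189 lower and 91 higher genes, and within batch 2, which held 2 WT PCN arrays, 100 and 18. Of the 442 calls, 194 remained within batch 1 and 103 within batch 2.

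**Figure D1:**
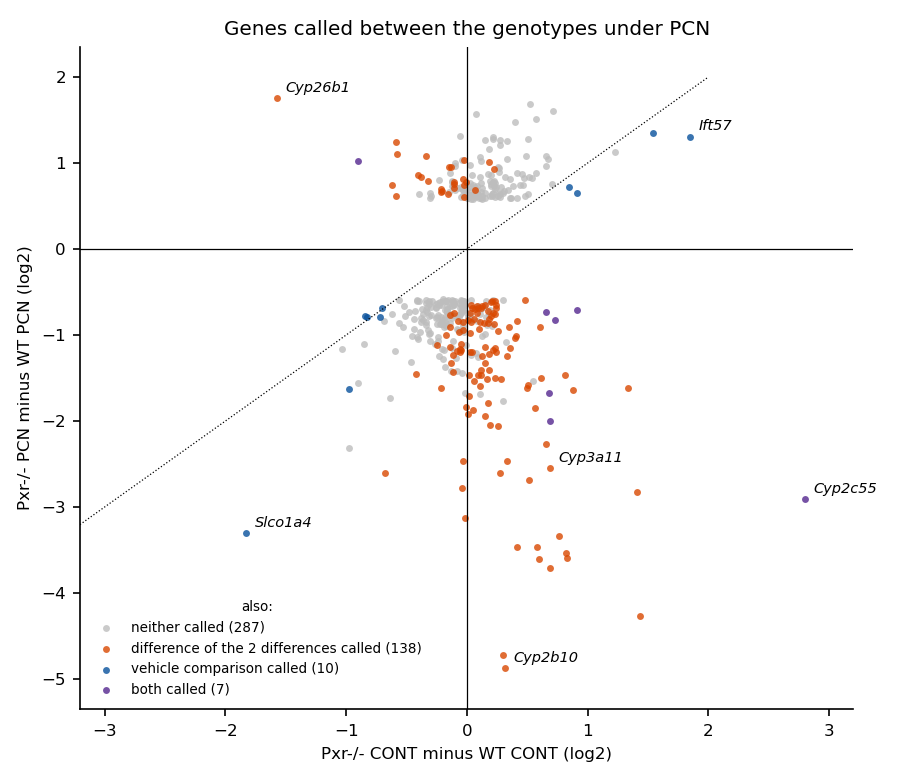
Each point is 1 of the 442 genes called between the genotypes under PCN, with its log2 difference under vehicle (*Pxr*-/- CONT minus WT CONT) on the x axis and under PCN (*Pxr*-/- PCN minus WT PCN) on the y axis. Colours mark genes also called in the test of the difference between these differences (138), under vehicle (10), in both (7) or in neither (287), and the dotted line marks equal differences. *Cyp2c55* lies far right of 0 and far below 0, and *Slco1a4* is low on both axes.

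**Figure D2:**
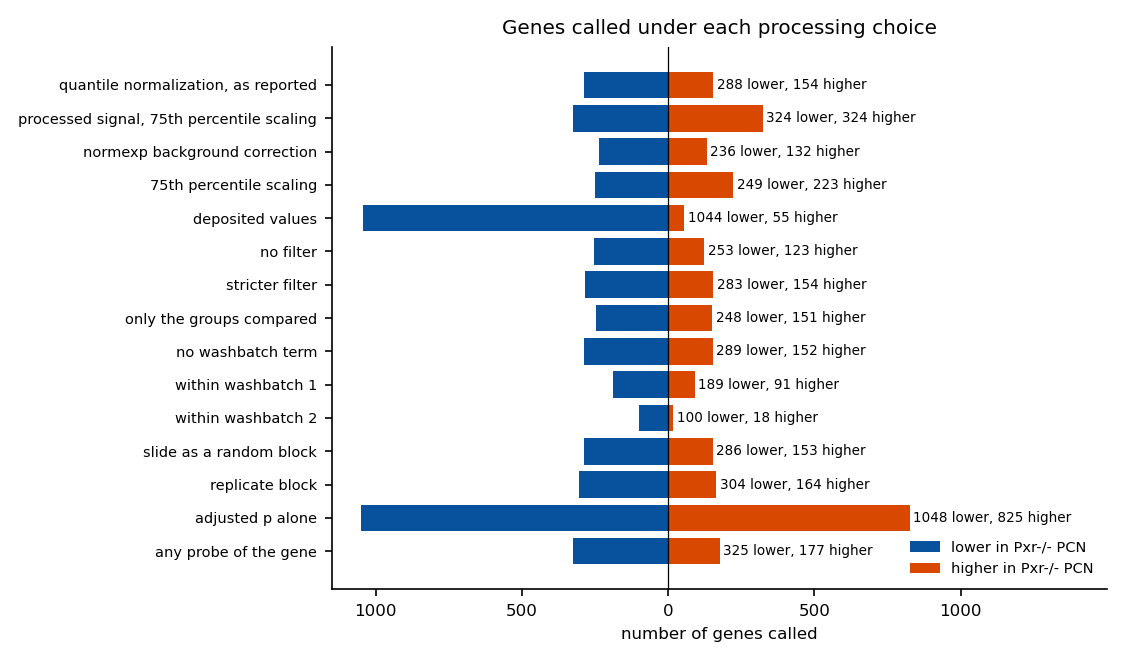
Number of genes called lower (left) and higher (right) in *Pxr*-/- PCN than in WT PCN livers (x axis) under each way of processing the arrays (y axis), from 288 lower and 154 higher as reported at the top. The deposited values gave 1044 lower and 55 higher genes, and scaling the processed signal to its 75th percentile gave 324 of each.

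The P450 enzymes carry out the first, oxidizing step of drug metabolism. Of 52 genes of P450 families 1 to 3 tested, 10 were lower and 3 were higher in *Pxr*-/- PCN livers, beside 1.36% and 0.727% of all genes, which are the background of each list count under PCN. The median of the whole list was 0.16, beside 0.01 over all genes, and it was -0.07 in the deposited values. Under vehicle, 9 of the 52 were higher in *Pxr*-/- livers and 0 lower, beside 0.227% and 0.0803% of all genes. The 10 genes lower under PCN belonged to the Cyp3a, Cyp2b and Cyp2c subfamilies.

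*Cyp3a11* read 16.90, 17.29, 17.20, 17.28 and 17.12 in WT PCN livers and between 14.14 and 15.13 in *Pxr*-/- PCN livers, with a median of 14.64. Every *Pxr*-/- PCN liver was thus more than 1 unit below every WT PCN liver. The difference was -2.55 ± 0.23 (SE), 5.85-fold (limma, adjusted p = 1.76e-07). Under vehicle it was 0.69 and not called, and the 2 differences differed by -3.24 (adjusted p = 1.2e-06). In all, 7 members of this gene cluster on chromosome 5 were lower, and beside *Cyp3a11* these were *Cyp3a16* (-2.26 ± 0.21), *Cyp3a59* (-1.67 ± 0.13), *Cyp3a41a* (-1.04 ± 0.17), *Cyp3a44* (-0.87 ± 0.13), *Cyp3a57* (-0.83 ± 0.11) and *Cyp3a25* (-0.73 ± 0.10), with adjusted p between 2.9e-08 and 0.00077. These genes are close paralogs whose transcripts may bind to each other's probes, so they are not independent results. Over the 23 arrays the signal of *Cyp3a11* minus that of *Cyp3a16* stayed between 0.57 and 1.28, while *Cyp3a11* itself ran from 12.83 to 17.29. *Cyp3a13*, a more distant relative, read 13.15, 13.09, 13.11, 13.45 and 13.10 against 12.83 to 13.44 (median 13.19), and its difference was 0.00 ± 0.13 (adjusted p = 0.986).

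*Cyp2c55*, another established PXR readout, differed in opposite directions with and without ligand. It read 12.61, 13.68, 13.35, 13.86 and 13.25 in WT PCN livers and 10.40 to 10.56 (median 10.45) in *Pxr*-/- PCN livers. The *Pxr*-/- PCN livers were all lower and lay within a narrow band. The difference under PCN was -2.91 ± 0.23 (7.52-fold, limma adjusted p = 2.6e-08), whereas under vehicle *Pxr*-/- livers, at 9.60 to 10.62, were above WT livers, at 6.64 to 8.10, by 2.80. Its difference between the differences, -5.72, was the largest of the named genes. A further 6 genes were called in both comparisons with opposite signs: *Ces2a*, *Cyp3a59*, *Cyp3a57*, *Cyp3a25* and *Gstm2* were higher under vehicle and lower under PCN, and *Fam25c* was lower under vehicle (-0.90) and higher under PCN (1.03). *Cyp2c29*, a relative of *Cyp2c55*, was higher under vehicle (0.68, called) and read 15.92, 16.66, 16.46, 16.51 and 16.15 in WT PCN against 16.27 to 16.63 (median 16.43) in *Pxr*-/- PCN livers, a difference of 0.09 ± 0.12 (limma, adjusted p = 0.724).

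The largest differences under PCN were those of the Cyp2b genes, the classical readout of CAR. *Cyp2b10* read 13.96, 15.17, 14.35, 16.04 and 14.83 in WT PCN livers and 7.88 to 11.61 (median 10.30) in *Pxr*-/- PCN livers. The groups did not overlap, but the *Pxr*-/- PCN livers spread over more than 3 units. Its difference was -4.88 ± 0.70, 29.4-fold (limma, adjusted p = 0.00015). *Cyp2b9*, which is female-biased in mouse liver, read 12.51, 13.71, 12.84, 14.68 and 13.37 against 6.71 to 10.22 (median 8.99), a difference of -4.72 ± 0.64 (26.4-fold, adjusted p = 6.7e-05). Both genes are close paralogs and moved together, the signal of *Cyp2b10* minus that of *Cyp2b9* staying between 0.72 and 1.51 on all 23 arrays. Under vehicle their differences were 0.32 and 0.30 and not called.

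**Figure D3:**
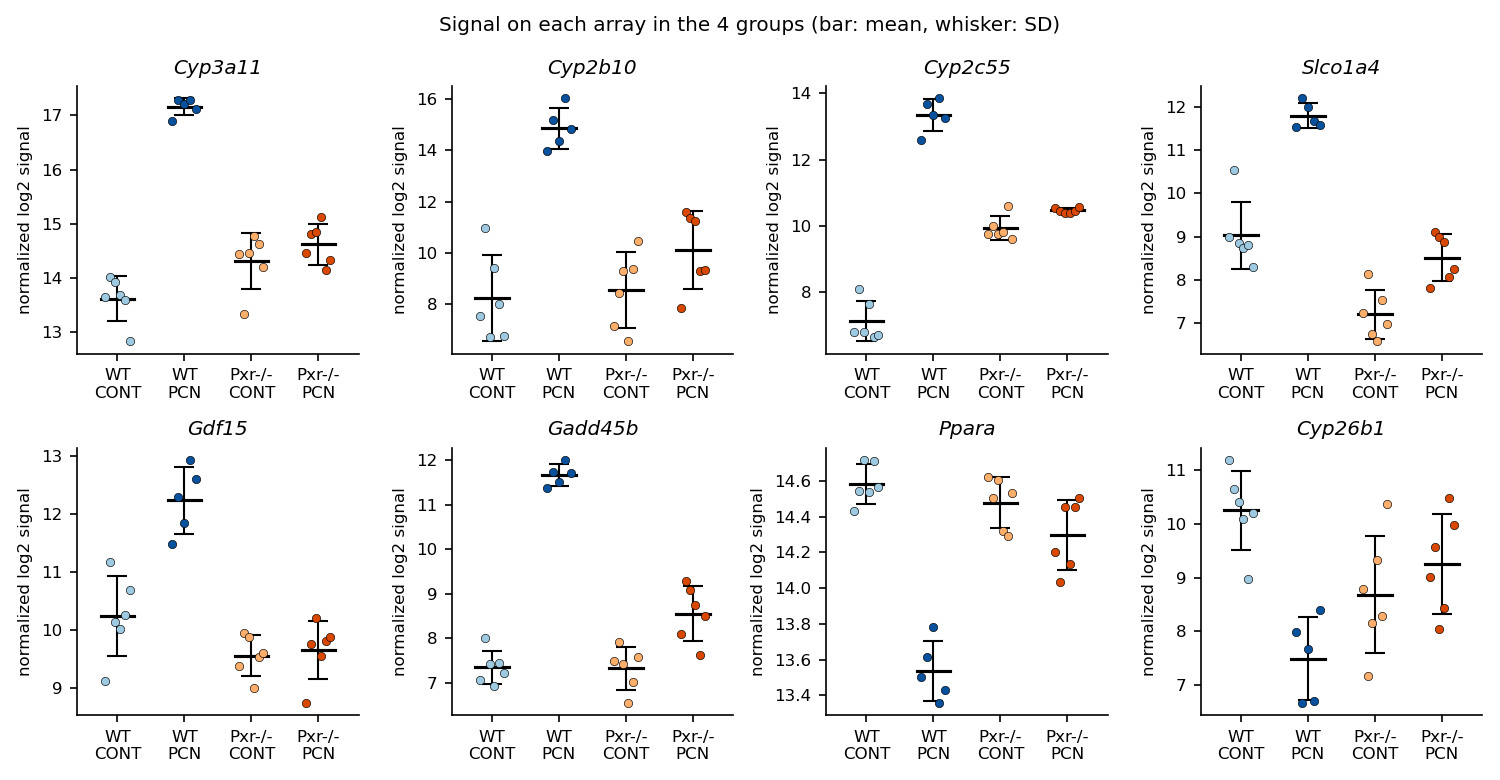
Normalized log2 signal (y axis) of 8 genes on each of the 23 arrays, by group (x axis), with 1 point per mouse, a bar at the group mean and whiskers for the SD. For *Cyp3a11*, *Cyp2b10*, *Cyp2c55*, *Slco1a4*, *Gdf15* and *Gadd45b* all 5 WT PCN points lie above all 6 *Pxr*-/- PCN points, for *Ppara* they all lie below, and for *Cyp26b1* the groups overlap.

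The P450 genes that were higher in *Pxr*-/- PCN livers numbered 3. Without WT PCN replicate 3 there were 6. *Cyp2d40* read 14.80, 14.89, 15.09, 13.95 and 14.98 in WT PCN livers and 15.39 to 16.28 (median 15.67) in *Pxr*-/- PCN livers (0.98 ± 0.26, adjusted p = 0.023). *Cyp1a2*, an enzyme of pericentral hepatocytes, read 12.06, 12.15, 12.35, 11.04 and 12.19 against 12.66 to 12.94 (median 12.79; 0.84 ± 0.22, adjusted p = 0.021). *Cyp2d13* differed by 0.66 ± 0.12 (adjusted p = 0.0015). In all 3 genes WT PCN replicate 4 was the lowest array, and without it all 3 calls were lost, *Cyp1a2* then differing by 0.61 and *Cyp2d13* by 0.57. The call of *Cyp2d40* was also lost without *Pxr*-/- PCN replicate 6 or WT PCN replicate 2, its difference being 0.80 to 0.99 in the 3 fits, and 0 genes of the list were higher in the deposited values. Of 14 electron partners of the P450 enzymes and genes of heme synthesis, 0 were called by limma. *Por*, the reductase that passes electrons to the P450 enzymes, read 15.98, 16.34, 16.34, 15.86 and 15.96 against 15.47 to 16.28 (median 16.11), a difference of -0.09 ± 0.16 (adjusted p = 0.775). *Alas1*, the first enzyme of heme synthesis, differed by 0.31 ± 0.18 (adjusted p = 0.298).

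The conjugating enzymes attach glutathione, sulfate or glucuronic acid to the products of oxidation. Of 21 glutathione S-transferases tested, 7 were lower and 0 higher in *Pxr*-/- PCN livers, beside 1.36% of all genes lower (median of the list -0.12). *Gstm4* read 13.81, 14.71, 14.41, 14.73 and 14.39 in WT PCN livers and 12.64 to 13.13 (median 13.03) in *Pxr*-/- PCN livers, a difference of -1.50 ± 0.17 (2.83-fold, adjusted p = 7.6e-06). *Gstm3* read 18.05, 18.35, 18.23, 18.40 and 17.97 against 17.03 to 17.51 (median 17.19; -1.01 ± 0.15, adjusted p = 0.00026). In both genes the groups did not overlap. The others were *Gsta4* (-1.25 ± 0.22), *Gstm1* (-1.15 ± 0.16), *Gstt3* (-0.90 ± 0.20), *Gstm2* (-0.71 ± 0.20) and *Gsta2* (-1.77 ± 0.54, adjusted p = 0.047). *Gsta2* lost its call in 17 of 23 fits that each left out 1 array, with differences of -1.92 to -1.49 there, and its groups overlapped. Transcripts of mu class paralogs may bind to each other's probes.

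Of 16 UDP-glucuronosyltransferases tested, 1 was lower: *Ugt2b35* read 9.19, 9.56, 9.63, 9.32 and 9.47 against 8.40 to 8.73 (median 8.65; -0.82 ± 0.12, adjusted p = 0.00015). In the deposited values 6 were lower. Of 12 sulfotransferases and genes of sulfate donor synthesis, 2 were lower and 2 higher. *Sult2a7*, a steroid sulfotransferase, read 10.36, 11.21, 11.74, 9.98 and 10.79 in WT PCN livers and 8.16 to 9.44 (median 8.77) in *Pxr*-/- PCN livers (-2.05 ± 0.37, 4.15-fold, adjusted p = 0.0015). *Sult2a8* of the same family differed the other way, by 0.69 ± 0.19 (adjusted p = 0.032). *Sult2a8*, *Sult1c1* (0.59 ± 0.12) and *Papss1* (-0.59 ± 0.16), which makes the sulfate donor, each lost the call in 5 to 9 of the fits without 1 array. *Papss2*, a paralog of *Papss1*, and *Sult1d1* were not called, at 0.23 ± 0.15 (adjusted p = 0.361) and 0.01 ± 0.16 (adjusted p = 0.97), although *Papss2* was higher under vehicle (0.98, called).

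Of 15 carboxylesterases, which cleave esters of drugs and lipids, 3 were lower and 0 higher, all of the Ces2 family. *Ces2a* read 15.65, 16.15, 16.15, 16.08 and 15.94 in WT PCN livers and 13.76 to 14.17 (median 14.09) in *Pxr*-/- PCN livers. The groups were separated by more than 1 unit, and the difference was -2.00 ± 0.14 (4.00-fold, limma adjusted p = 7.2e-09), against 0.69 under vehicle. *Ces2f* differed by -1.84 ± 0.14 (adjusted p = 2.1e-08). *Ces2g* (-0.60 ± 0.11, adjusted p = 0.0013) was near the fold threshold and fell short of it without *Pxr*-/- PCN replicate 3 or WT PCN replicate 5, at -0.58 in both fits.

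Among 39 reductases, aldehyde dehydrogenases and hydrolases, 4 were lower and 0 higher. *Akr1b7*, whose promoter is printed above, read 9.15, 10.72, 10.17, 11.89 and 10.21 in WT PCN livers and 7.43 to 8.18 (median 7.54) in *Pxr*-/- PCN livers. Its groups did not overlap, and the difference was -2.83 ± 0.35 (7.09-fold, adjusted p = 1.9e-05). Under vehicle it was 1.41 and not called, and the difference between the differences was -4.23 (adjusted p = 1.2e-05). *Cbr3*, a carbonyl reductase (-1.02 ± 0.16), and *Ephx1*, the microsomal epoxide hydrolase (-0.75 ± 0.12), were lower without overlap of the groups, whereas *Akr1d1*, a steroid reductase of bile acid synthesis (-0.59 ± 0.17), lost its call in 11 of the fits without 1 array. *Aldh1a1*, a retinaldehyde dehydrogenase, read 16.73, 17.38, 17.29, 16.61 and 16.99 against 16.91 to 17.21 (median 16.97), a difference of 0.01 ± 0.14 (limma, adjusted p = 0.981).

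Transporters take up and export drugs, bile acids and conjugates. Of 26 tested, 4 were lower and 1 was higher in *Pxr*-/- PCN livers, beside 1.36% and 0.727% of all genes. *Slco1a4*, an organic anion uptake carrier, read 11.53, 12.19, 11.99, 11.68 and 11.58 in WT PCN livers and 7.82 to 9.10 (median 8.57) in *Pxr*-/- PCN livers. All *Pxr*-/- PCN livers were more than 2 units below the lowest WT PCN liver, and the difference was -3.30 ± 0.32 (9.86-fold, limma adjusted p = 6.7e-07). Unlike *Cyp3a11* and *Cyp2c55*, *Slco1a4* was also lower under vehicle (-1.83, adjusted p = 0.0046), and the difference between the differences, -1.47, was not called (adjusted p = 0.11).

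*Abcb1a*, an efflux pump, read 7.95, 8.94, 8.67, 9.03 and 8.15 against 6.38 to 7.45 (median 7.24; -1.47 ± 0.25, adjusted p = 0.0011). *Abcc3*, which exports conjugates to the blood, read 14.64, 14.84, 14.97, 14.97 and 14.81 against 13.59 to 14.38 (median 14.10; -0.81 ± 0.13, adjusted p = 0.00058). Neither gene overlapped between the groups or lost its call without any 1 array. *Slc51b*, a subunit of the basolateral bile acid exporter, was lower (-0.91 ± 0.25, adjusted p = 0.03) and *Slco1a1*, a male-biased uptake carrier, was higher (0.60 ± 0.17, adjusted p = 0.034), but the groups overlapped in both genes and the calls were lost without WT PCN replicate 4, among 5 and 6 such arrays, at -0.90 to -0.81 and 0.44 to 0.58.

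Of the 10 largest negative differences among genes with a RefSeq name, 5 fell outside every list. *Rnf150*, a RING finger gene, read 10.90, 12.74, 11.95, 12.77 and 12.05 in WT PCN livers and 8.05 to 8.60 (median 8.43) in *Pxr*-/- PCN livers, a difference of -3.71 ± 0.25 (13.1-fold, limma adjusted p = 7.2e-09). *Krt31*, a hair keratin, differed by -3.59 ± 0.27 (12.1-fold) and *Pou5f1*, a transcription factor of embryonic stem cells, by -3.47 ± 0.25 (11.1-fold). *Myom3*, a muscle sarcomere protein, read 9.30, 10.56, 10.53, 9.69 and 10.61 against 5.54 to 7.31 (median 6.79; -3.46 ± 0.29), and *Gm10639* differed by -3.34 ± 0.63. The groups did not overlap in any of these 5 genes, which were picked for their size, nor in 189 of all 288 lower genes. The names are those of the probes, and *Krt31* and *Pou5f1* mark tissues other than liver. The signals of *Rnf150* and *Krt31* differed by -0.53 to 0.16 on the 23 arrays, while *Rnf150* ran from 6.43 to 12.77, and those of *Krt31* and *Pou5f1* differed by -0.34 to 0.66. The longest run of bases shared by these probes of 60 bases was 11, whereas the probe of *Gm10639* shared a run of 30 with that of *Gsta2*. *Rnf150* had another kept probe, which differed by -0.37 and was not called. Of the called genes named here, 26 had another kept probe, which was called the same way for 13 of them and had the opposite sign for 1, *Nupr1*. Whether these probes read the named transcripts was not tested.

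Immediate early and heat shock genes respond to growth signals and stress within minutes to hours. Of 25 tested, 6 were lower and 0 higher, beside 1.36% of all genes lower, while 8 had positive differences and the list median was -0.15. *Gadd45b*, a stress and growth arrest gene, read 11.38, 11.74, 11.51, 12.02 and 11.71 in WT PCN livers and 7.62 to 9.29 (median 8.62) in *Pxr*-/- PCN livers. No *Pxr*-/- PCN liver came within 2 units of a WT PCN liver, and the difference was -3.13 ± 0.26 (8.77-fold, limma adjusted p = 5.7e-08). *Myc*, a growth-promoting transcription factor, read 9.84, 10.13, 9.51, 10.07 and 9.52 against 7.03 to 8.51 (median 7.66; -2.05 ± 0.30, adjusted p = 0.00019). *Gadd45a* (-1.16 ± 0.19), *Atf3* (-1.07 ± 0.18), *Jun* (-0.98 ± 0.28) and *Egr2* (-0.69) were the others. On the whole list the mean signal was 9.74 to 10.01 on WT PCN arrays and 9.30 to 9.65 on *Pxr*-/- PCN arrays, without overlap, while the vehicle groups lay lower, between 8.70 and 9.41. The difference between the differences was called for *Gadd45b* (-3.12) and *Myc* (-2.24) alone among the 25.

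*Gdf15*, a stress-induced hormone that lowers food intake, read 11.48, 12.28, 11.85, 12.93 and 12.59 in WT PCN livers and 8.74 to 10.19 (median 9.78) in *Pxr*-/- PCN livers (-2.60 ± 0.30, 6.08-fold, limma adjusted p = 7.6e-06), without overlap, and -0.68 under vehicle. Of the 33 secreted factors tested, 3 were lower and 1 was higher. *Smoc2*, a matrix protein, differed by -1.41 ± 0.21 (adjusted p = 0.00021). *Ihh*, a hedgehog ligand, was the higher one (1.04 ± 0.30) and lost the call in 7 of the fits without 1 array. *Fgf21*, a hormone of the fasted liver, read 5.56, 7.22, 5.22, 6.44 and 5.35 against 5.50 to 6.63 (median 5.96), was well above background on 3 of 5 and 5 of 6 of these arrays, and differed by 0.01 ± 0.43 (adjusted p = 0.995). Of 21 ATF4 target genes, *Gdf15* and *Nupr1* (-0.80 ± 0.16, but 0.06 by its other probe) were lower and *Chac1*, a glutathione-degrading enzyme, was higher (1.28 ± 0.36, adjusted p = 0.032), although *Chac1* lost the call without any of 6 arrays.

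Nrf2 targets, which supply glutathione and defend against oxidants, were lower in 4 of 25 cases and higher in 0, beside 1.36% of all genes lower. A difference below 0 was found in 23 of the 25 (median -0.22) and in 10174 of all 21183 genes (48.0%). *Srxn1*, which repairs oxidized peroxiredoxins, read 12.33, 12.51, 12.53, 12.61 and 12.21 in WT PCN livers and 11.53 to 11.95 (median 11.68) in *Pxr*-/- PCN livers (-0.74 ± 0.10, adjusted p = 5.0e-05). *Gsr*, glutathione reductase, differed by -0.66 ± 0.09. The remaining lower members, *Abcc3* and *Cbr3*, stand in the lists above too. Within washing batch 2 alone, 0 of the 25 passed.

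**Figure D4:**
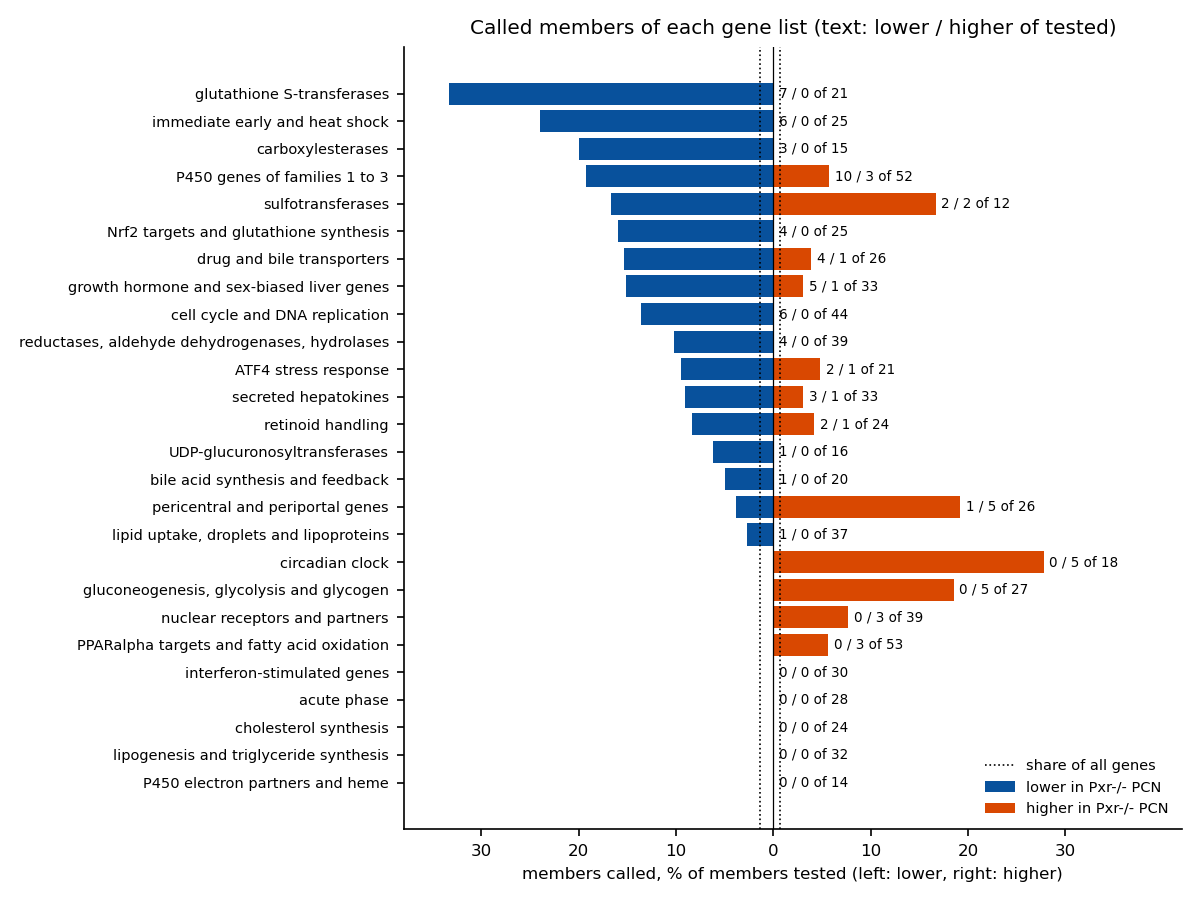
For each of the 26 gene lists (y axis), the share of tested members that were called lower (left) or higher (right) in *Pxr*-/- PCN than in WT PCN livers, in percent (x axis), with the counts in text. Dotted lines mark the shares over all 21183 genes, 1.36% lower and 0.727% higher. Glutathione S-transferases have the largest share of lower members (7 of 21) and clock genes the largest share of higher members (5 of 18).

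In the nuclear receptor list, 3 of 39 were higher in *Pxr*-/- PCN livers and 0 were lower, beside 0.727% of all genes higher. *Ppara*, the receptor that drives fatty acid oxidation in fasting, read 13.50, 13.61, 13.78, 13.36 and 13.43 in WT PCN livers and 14.04 to 14.50 (median 14.32) in *Pxr*-/- PCN livers. The groups did not overlap, with a difference of 0.76 ± 0.10 (1.69-fold, limma adjusted p = 3.7e-05), -0.11 under vehicle and a difference between the differences of 0.87 (adjusted p = 0.00088). *Nr1i3*, which encodes CAR, read 10.73, 11.40, 11.19, 9.78 and 10.79 against 11.18 to 11.99 (median 11.76; 0.86 ± 0.20, adjusted p = 0.013), with overlap. *Ppargc1a*, a coactivator of mitochondrial genes, was at the threshold (0.60 ± 0.18, adjusted p = 0.0498) and lost the call in 17 of the fits without 1 array.

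Of 53 PPARα targets and genes of fatty acid oxidation tested, 3 were higher and 0 lower, beside 0.727% of all genes higher. The list median was 0.04, beside 0.01 over all genes, and -0.18 in the deposited values. Under vehicle the list median was -0.21, and the difference between the differences had a median of 0.30, with 2 members called higher. Besides *Ppara* itself the higher members under PCN were *Acot1*, a cytosolic acyl-CoA thioesterase, and *Cpt1a*, which admits fatty acids to mitochondria. *Acot1* read 9.60, 9.51, 8.87, 9.16 and 9.44 in WT PCN livers and 9.93 to 11.25 (median 10.69) in *Pxr*-/- PCN livers (1.32 ± 0.30, adjusted p = 0.0096), and *Cpt1a* read 13.81, 13.81, 13.75, 13.62 and 13.69 against 14.18 to 14.66 (median 14.32; 0.64 ± 0.11, adjusted p = 0.00098), neither with overlap. The omega-hydroxylase *Cyp4a10* read 9.25, 9.64, 8.28, 9.83 and 9.66 against 8.24 to 9.93 (median 9.30), a difference of -0.20 ± 0.35 (adjusted p = 0.769). *Cyp4a14* was well above background on 1 array of each group. *Plin4*, a lipid droplet protein, differed by 0.80 ± 0.46 (adjusted p = 0.299).

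Of 32 genes of lipogenesis and triglyceride synthesis, 0 were called under PCN by limma, 2 were higher under vehicle, and 3 were lower in the test of the difference between the differences. One of these, *Pnpla3*, a triglyceride-modifying enzyme, read 8.67, 9.03, 9.03, 7.16 and 7.79 in WT PCN livers and 6.01 to 8.45 (median 7.12) in *Pxr*-/- PCN livers. It differed by -1.24 ± 0.47 under PCN (limma, adjusted p = 0.108) and by 1.62 under vehicle, neither called, while the 2 differences differed by -2.86 (adjusted p = 0.025). Its other kept probe differed by -0.54 under PCN and was not called. In WT CONT livers *Pnpla3* was well above background on 3 of 6 arrays, which limits its vehicle difference and the -2.86. The list median was -0.04 under PCN, 0.15 within washing batch 1 and -0.39 within batch 2, against 0.40 under vehicle. *Fasn*, the fatty acid synthase, read 16.29, 17.74, 16.78, 14.88 and 15.35 against 14.46 to 16.41 (median 15.45; -0.77 ± 0.40, adjusted p = 0.248). *Thrsp* (-0.67 ± 0.44), *Scd1* (-0.20 ± 0.42) and *Srebf1* (0.43 ± 0.25) were not called either. Cholesterol synthesis (24 genes) had 0 calls by limma and bile acid synthesis (20 genes) 1, *Akr1d1*. *Cyp7a1*, the rate-limiting enzyme of bile acid synthesis, differed by 0.62 ± 0.35 (adjusted p = 0.287) and *Cyp8b1*, which makes cholic acid, by -1.003 ± 0.46 (adjusted p = 0.187).

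Of 27 genes of gluconeogenesis, glycolysis and glycogen, 5 were higher and 0 lower, beside 0.727% of all genes higher, although 2 were higher in the deposited values. *Pck1*, the gatekeeping enzyme of gluconeogenesis, read 15.18, 13.59, 14.44, 14.96 and 15.68 in WT PCN livers and 15.55 to 16.42 (median 16.01) in *Pxr*-/- PCN livers (1.27 ± 0.27, 2.41-fold, adjusted p = 0.0057), with overlap. *Sds*, serine dehydratase, read 12.87, 12.76, 12.23, 12.71 and 12.74 against 13.41 to 13.98 (median 13.79; 1.08 ± 0.24, adjusted p = 0.0097), without overlap. *Tat*, tyrosine aminotransferase (0.73 ± 0.22), and *Ppargc1a* lost their calls in 12 and 17 of the fits without 1 array, and the count of the list was 2 or 3 in 10 of these fits, with 2 without WT PCN replicate 2 or *Pxr*-/- PCN replicate 3 or 6. *G6pc*, the last step of glucose release, differed by -0.48 ± 0.52 (adjusted p = 0.617). Of 26 genes that mark pericentral or periportal hepatocytes, 5 were higher: *Pck1*, *Sds*, *Cyp1a2*, *Oat* (0.64) and *Glul* (0.62). Without WT PCN replicate 4, and in the deposited values, 2 of the 26 were higher. *Hsd17b6*, a steroid dehydrogenase, was the 1 lower member, reading 10.07, 10.31, 10.71, 11.55 and 10.87 against 7.51 to 9.12 (median 8.44; -2.31 ± 0.35, adjusted p = 0.00033).

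In the circadian clock and cell cycle lists the number of called genes depended on WT PCN replicate 4. Of 18 clock genes, 5 were higher and 0 lower in *Pxr*-/- PCN livers, beside 0.727% of all genes higher: *Ciart*, *Dbp*, *Hlf*, *Tef* and *Per3*, the first a repressor of the clock and the next 3 its PAR-bZIP output factors. *Dbp* read 13.94, 14.16, 14.26, 12.66 and 13.67 in WT PCN livers and 14.04 to 15.22 (median 14.95) in *Pxr*-/- PCN livers (1.07 ± 0.24, adjusted p = 0.0089), the groups overlapping. *Usp2*, a clock-controlled ubiquitin protease, had 1 of the 10 largest positive differences among RefSeq names. It read 9.78, 10.92, 11.14, 8.29 and 9.63 against 11.27 to 12.27 (median 11.57; 1.69 ± 0.45, adjusted p = 0.024). WT PCN replicate 4 was the lowest array for both genes. Without it 1 of the 18 clock genes was called (2 or 3 without WT PCN replicate 5 or *Pxr*-/- PCN replicate 1, 3, 5 or 6), and the call of *Usp2* was lost (also without *Pxr*-/- PCN replicate 3 or 6), at 1.299 to 1.59. The mean signal of the list was 9.95, 10.00, 10.09, 9.57 and 9.86 on WT PCN arrays and 10.095 to 10.52 on *Pxr*-/- PCN arrays, without overlap. The median difference of the list was 0.38 and stayed between 0.36 and 0.44 without each array in turn. *Arntl*, the positive arm of the clock, read 6.40, 5.29, 6.28, 8.08 and 6.90 against 5.45 to 6.41 (median 5.62; -0.85 ± 0.33, adjusted p = 0.115).

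Of 44 cell cycle genes, 6 were lower and 0 higher, beside 1.36% of all genes lower. In 38 of the 44 the difference was negative, against 48.0% of all genes, and the median was -0.46. *Cdc20*, an activator of the anaphase complex, read 7.99, 8.64, 8.14, 11.005 and 9.32 in WT PCN livers and 6.64 to 8.17 (median 7.499) in *Pxr*-/- PCN livers (-1.56 ± 0.48, adjusted p = 0.048). *Mki67*, the proliferation marker, read 7.95, 8.76, 8.64, 9.97 and 8.65 against 7.24 to 8.51 (median 8.06; -0.80 ± 0.29, adjusted p = 0.0886). WT PCN replicate 4 was the highest array in both, and its list mean was 8.86 against 7.69, 8.08, 7.89 and 8.09 on the other WT PCN arrays and 7.35 to 7.95 on *Pxr*-/- PCN arrays. Without this array 0 of the 44 genes were lower, with a list median of -0.29, and without WT PCN replicate 1 or WT CONT replicate 2 there were 15 or 12. The count moved by over 1.5 times in 18 of the fits without 1 array. Between 0 and 21 were lower over the processing settings, the highest number being that of the deposited values.

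**Figure D5:**
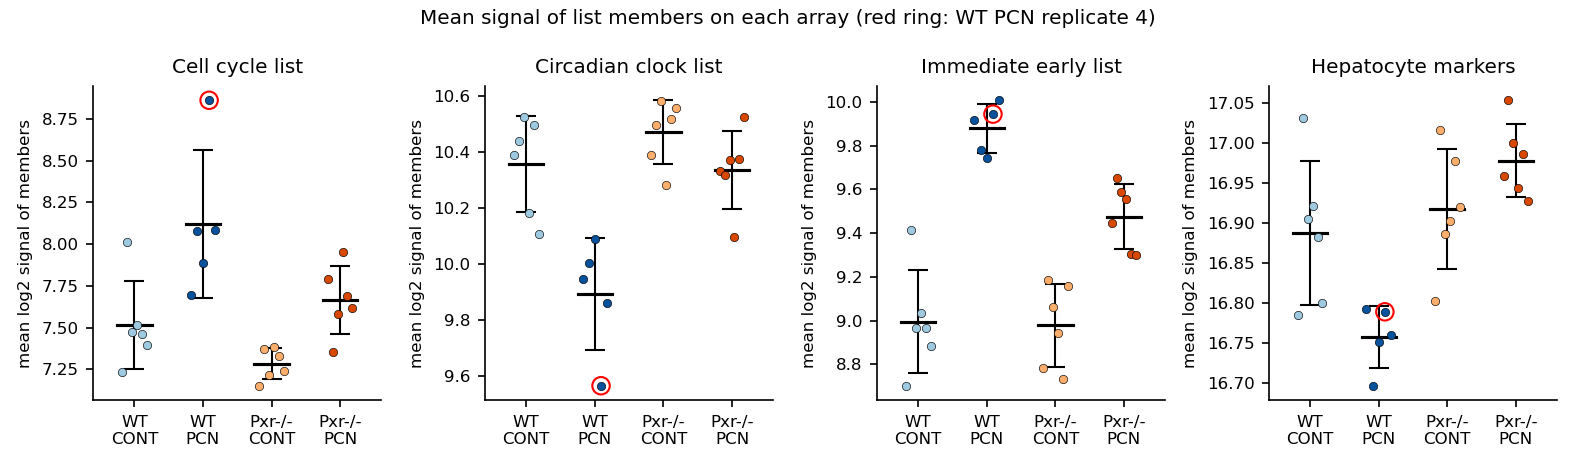
Mean normalized log2 signal (y axis) of the tested members of 4 lists on each array, by group (x axis), with 1 point per mouse, a bar at the group mean and whiskers for the SD. WT PCN replicate 4 is ringed: it is the highest array of all in the cell cycle list (8.86) and the lowest in the clock list (9.57), but lies among its group for immediate early genes and hepatocyte markers.

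Retinoid genes split in 2 directions. *Cyp26a1* read 9.99, 9.34, 10.65, 10.86 and 11.004 in WT PCN livers and 8.18 to 9.61 (median 8.69) in *Pxr*-/- PCN livers (-1.61 ± 0.35, 3.06-fold, adjusted p = 0.0072). *Cyp26b1*, which degrades retinoic acid too, read 7.98, 6.67, 7.66, 6.71 and 8.40 against 8.04 to 10.48 (median 9.29; 1.76 ± 0.51, 3.38-fold, adjusted p = 0.037). Both differed in the opposite sense under vehicle, by 1.33 and -1.58, not called, and the differences between the differences were -2.95 (adjusted p = 0.0014) and 3.33 (adjusted p = 0.015). The groups overlapped in both genes, and *Cyp26b1* lost its PCN call in 7 of the fits without 1 array, at 1.47 to 1.80. *Aldh1a3*, which makes retinoic acid, was lower (-0.75 ± 0.18), and these 3 were the called members of 24.

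Among 33 growth hormone and sex-biased liver genes, 5 were lower and 1 was higher. Of the lower ones, 4 are *Cyp2b9* and the female-biased *Cyp3a16*, *Cyp3a41a* and *Cyp3a44*, whose probes may read their paralogs. The fifth, *Cux2*, a female-specific transcription factor, passed the detection flag on 4 of 5 arrays from WT PCN mice and on 0 of 6 from *Pxr*-/- PCN mice, a difference of at least 2.55-fold, and lost its call in 18 of the fits without 1 array. Of these 2 groups only WT PCN met the detection filter, so the flag counts are no separate support. Under vehicle *Cux2* read 8.33 in *Pxr*-/- CONT replicate 2, above every WT PCN array (at most 7.48). The other vehicle arrays read 4.88 to 5.34. *Igf1*, the main growth hormone output of the liver, read 15.21, 14.95, 15.13, 15.32 and 15.19 against 15.25 to 15.64 (median 15.43), and its difference of 0.31 ± 0.08 had an adjusted p of 0.022 with a fold of 1.24, below the threshold. Acute phase genes (28) and interferon-stimulated genes (30) had 0 calls by limma, with medians of 0.11 and 0.22. *Orm3*, an acute phase protein, read 12.57, 12.73, 13.55, 12.78 and 12.96 against 12.34 to 13.54 (median 13.00), a difference of 0.10 ± 0.64 (adjusted p = 0.948).

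Markers of other cells of the liver gave few calls: *Sox9* of 10 cholangiocyte markers was lower (-0.76, and -0.29 by its other probe), *Cd4* of 9 lymphocyte markers was higher (0.77, and 0.07 by its other probe) and *Fabp4* of 6 adipose markers was lower (-0.59), each losing the call in 5 to 9 of the fits without 1 array. Among 13 Kupffer cell, 16 endothelial, 16 stellate, 12 neutrophil and monocyte, 9 red blood cell and 6 pancreas markers, 0 were called by limma. The mean signal of stellate cell markers ran from 9.70 to 10.38 on WT PCN arrays and from 9.18 to 10.24 on *Pxr*-/- PCN arrays, and that of Kupffer cell markers from 10.82 to 12.10 and from 10.79 to 11.67. Of 12 hepatocyte markers, *Tat* was higher.

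A small set of genes differed between the genotypes in the same direction with and without PCN. The PCN and vehicle comparisons share no arrays, and 10 genes were called in both with the same sign, which is 2.26% of the 442 PCN calls and 15.4% of the 65 vehicle calls. *Ift57*, a component of ciliary transport, read 6.56, 6.68, 6.77, 7.18 and 6.72 in WT PCN livers and 7.47 to 8.30 (median 8.18) in *Pxr*-/- PCN livers (1.31 ± 0.16, adjusted p = 2.6e-05), and differed by 1.85 under vehicle. *Tmeff2*, a membrane protein, differed by 1.35 ± 0.24 and by 1.54, and passed the detection flag in 1 of 5 WT PCN mice but in 6 of 6 *Pxr*-/- PCN mice. Of these 2 groups only *Pxr*-/- PCN met the detection filter, so these flag counts are no separate support either. The others, chosen after their values were seen, were *Abi3bp* and *Upp2*, which were higher, and *Slco1a4*, *Apol7b*, *Abhd10*, *Senp5*, *Pigx* and *Kyat3*, which were lower. Of the 10, 5 (*Ift57*, *Abi3bp*, *Abhd10*, *Senp5* and *Pigx*) lie on chromosome 16, the chromosome of *Nr1i2*. *Abhd10*, *Senp5* and *Pigx* lie within 10 Mb of the *Nr1i2* probe, and *Ift57* and *Abi3bp* lie outside this window. Within 10 Mb of the *Nr1i2* probe, 8 of 177 genes were lower and 4 higher under PCN (6.78% called), against 4 and 4 of the other 498 genes of that chromosome (1.61%) and 2.09% of all genes. Under vehicle, 7 of the 177 were lower and 1 was higher, against 0 and 3 of the other 498 and 0.307% of all genes called. The part of strain sequence carried along with the knockout allele was not tested.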

How the data were processed

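Liver RNA of 23 mice was hybridised to Agilent 1-colour arrays, 1 array per mouse. Groups, replicate numbers and washing batches were taken from the labels and slides from the array headers. Per the file headers, each scanner table gives a linear spot intensity from Agilent Feature Extraction 10.10.1.1 that was not normalized between arrays. The authors also deposited log2 values, for which they filtered the median signal, removed the effect of the washing batch and applied CrossNorm. These log2 values were used as an alternative and carry an unstated centring (column medians from 7.54 to 8.01).

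Here the log2 median signals of 56605 probes were used, with outlier spots (2225) set missing and spots of a probe averaged. Probes were kept (32087) if detected well above background in over 50% of any group's arrays and quantile normalized. Names were updated through accessions, and 15791 of 21183 genes (74.5%) were found in RefSeq (GRCm38.p6). Probe coordinates are in mm9. A limma 3.58.1 model in R 4.3.3 with a term per group and per washing batch was fitted to all 23 arrays (18 residual degrees of freedom). P-values were adjusted by Benjamini-Hochberg over all kept probes, and each gene was read from its brightest kept probe. On simulated data for the PCN comparison over 32087 probes, 97 of 100 changed probes at a log2 size of 1 and 99 of 100 at a size of 2 were recovered, with 3 false calls. The simulated noise was normal and independent between arrays, without a washing batch effect or an array that stood apart. Recovery in the real arrays may therefore be lower. The number of arrays limits the precision, and no probe was saturated.

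Alternatives were other signals, scalings and filters, fits of the compared groups alone, within or without washing batch, with slide or replicate as a block, and without each array. Named genes were 49 fixed genes (47 tested, *Gsta1* and *Ugt1a1* not passing the filter), the 10 largest called differences in each direction among RefSeq names, and up to 3 called members per list and direction. Of the genes so chosen, 2 are not reported here, and 72 of the other 100 were called. The members and lists were chosen with earlier results of these data known. The figures were drawn with matplotlib 3.10.9.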

Additional observations from a re-analysis of the deposited data

Results flagged for a closer look

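For 35 of the 100 named genes, the genotype difference under PCN differed from that under vehicle by the same limma contrast and thresholds. Of all genes tested, 1.05% were so called. Many of the named genes were chosen by their PCN difference, which is part of this contrast, so the 2 shares cannot be compared. The values in parentheses are the log2 difference under PCN minus that under vehicle. Among P450 genes and retinoid hydroxylases these were *Cyp2c55* (-5.72), *Cyp2b10* (-5.19), *Cyp2b9* (-5.02), *Cyp3a11* (-3.24), *Cyp3a16* (-2.92), *Cyp3a25* (-1.39), *Cyp2d13* (0.87), *Cyp26a1* (-2.95) and *Cyp26b1* (3.33). Among conjugating enzymes, esterases, reductases and transporters they were *Akr1b7* (-4.23), *Ces2a* (-2.69), *Ces2f* (-2.41), *Ces2g* (-0.84), *Sult2a7* (-2.31), *Gstm4* (-2.11), *Gsta4* (-1.58), *Gstm3* (-1.41), *Ugt2b35* (-0.83), *Abcb1a* (-1.49) and *Abcc3* (-0.99). Among receptors, lipid genes, stress genes and secreted factors they were *Nr1i3* (1.27), *Ppara* (0.87), *Cpt1a* (0.79), *Pnpla3* (-2.86), *Gadd45b* (-3.12), *Myc* (-2.24), *Srxn1* (-0.77), *Gdf15* (-1.92), *Smoc2* (-1.59) and *Enho* (1.84). The genes outside the lists were *Rnf150* (-4.40), *Krt31* (-4.42), *Pou5f1* (-4.05), *Myom3* (-3.88) and *Gm10639* (-4.11).

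Single arrays lay apart from the rest of their group, by Dixon's criterion, in 14 of 200 groups of values, where chance gives about 1 in 20. WT PCN replicate 4 was such an array for *Cyp3a13* (highest, 13.45 against 13.15 for the next array) and was the lowest for *Cyp8b1* (9.07), *Cyp2d40* (13.95) and *Cyp1a2* (11.04). *Smoc2* was highest in WT PCN replicate 2 (12.13) and *Sds* lowest in WT PCN replicate 3 (12.23). Among *Pxr*-/- PCN arrays, replicate 1 was lowest for *Alas1* (16.49) and *Ugt2b35* (8.40) and highest for *Cyp8b1* (11.21), replicate 2 was highest for *Akr1b7* (8.18) and *Ces2g* (10.51) and lowest for *Ift57* (7.47), replicate 5 was highest for *Srebf1* (15.32) and replicate 6 for *Ihh* (8.83).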

How the results depend on the processing

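In each fit on other signals, scalings, filters, samples or blocks, the called genes that were found kept their sign under PCN, except 1 gene within washing batch 2. Fewer kept the call itself, the lowest number being 103 of 442 within batch 2. The counts below moved by more than 1.5 times, and the cause was not tested unless the setting itself uses fewer arrays. Under PCN, 324 genes were higher with the processed signal scaled to its 75th percentile. With the deposited values 55 were higher and 1044 lower, 27 were higher and 33 lower under vehicle, 32 were higher in the test of the difference between the differences, and 16 were shared with the vehicle comparison. With the compared groups alone, 10 were lower under vehicle. Within washing batch 1 (fewer arrays) the counts were 91 higher and 189 lower under PCN, 8 and 1 under vehicle, 13 and 71 for the difference between the differences and 4 shared, and within batch 2 they were 18 and 100 under PCN, 13 and 79 for the difference between the differences and 1 shared. By adjusted p alone, with no fold threshold, 825 were higher and 1048 lower under PCN, 73 and 31 under vehicle, 107 were higher for the difference between the differences and 29 were shared. Leaving out 1 array at a time gave 104 to 173 higher and 229 to 341 lower genes under PCN, 36 to 59 and 14 to 23 under vehicle, 43 to 72 and 147 to 190 for the difference between the differences, and 8 to 15 shared. Of the 72 named genes called, 44 kept the call in each of these 23 fits.

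Same-numbered arrays deviated from their group means with correlations of -0.10 to 0.25 over 5 pairs, and 1 of 5 correlated best with its own number. The arrays were treated as unpaired, although 5 pairs are too few to exclude a pairing. With the replicate number as a block, 164 genes were higher and 304 lower under PCN, 61 and 20 under vehicle, 58 and 179 for the difference between the differences, and 19 were shared.

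Among the named genes, the reversals all concerned genes that were not called. *Cyp3a13* was -0.0073 with 75th percentile scaling, -0.27 with the deposited values, -0.00016 without the washing batch, -0.021 with the replicate block and -0.087 within batch 1. With 75th percentile scaling *Cyp4a14* was 0.055. With the deposited values *Aldh1a1* was -0.18, *Cyp2c29* -0.12, *Fgf21* -0.12, *Orm3* -0.16, *Papss2* -0.066 and *Sult1d1* -0.24. With normexp background correction *Aldh1a1* was -0.014 and *Fgf21* -0.0077, with the compared groups alone *Aldh1a1* was -0.00069, and with the replicate block *Orm3* was -0.13. Within batch 1 *Fasn* was 0.16 and *Scd1* 0.30. Within batch 2 *Aldh1a1* was -0.28, *Arntl* 0.19, *Cyp2c29* -0.079, *Cyp4a10* 0.55, *Cyp7a1* -0.16, *Fgf21* -0.11, *Nr1i2* 0.051, *Orm3* -0.35, *Per2* -0.059, *Srebf1* -0.50 and *Sult1d1* -0.12. Without 1 array, *Aldh1a1* ran from -0.072 to 0.083, *Cyp2c29* from -0.0059 to 0.15, *Cyp3a13* from -0.047 to 0.088, *Cyp4a14* from -0.18 to 0.10, *Fgf21* from -0.27 to 0.30, *Orm3* from -0.022 to 0.33, *Por* from -0.14 to 0.0088, *Scd1* from -0.39 to 0.18 and *Sult1d1* from -0.064 to 0.13. Signal over background limits genes that were below the detection flag on some arrays, which included *Cyp4a14*, *Fgf21*, *Cux2* and *Tmeff2*. In WT CONT livers *Pnpla3* passed the flag on 3 of 6 arrays and *Akr1b7* on 5 of 6.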

Other observations

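Some higher genes that belong to none of the lists were called with wide spreads. *Clec2h*, a C-type lectin, read 7.76, 6.20, 7.59, 7.01 and 7.38 in WT PCN livers and 7.997 to 9.30 (median 8.74) in *Pxr*-/- PCN livers (1.57 ± 0.41, limma adjusted p = 0.023), without overlap, and lost its call without *Pxr*-/- PCN replicate 6 or WT PCN replicate 2 or 4, at 1.37 to 1.44. *Cabyr*, a calcium-binding protein of the sperm tail, differed by 1.48 ± 0.42 and lost its call without any of 5 arrays. *Ppp1r1b*, a phosphatase inhibitor best known from dopamine signalling, read 8.64, 8.78, 8.91, 7.43 and 8.20 against 8.67 to 10.23 (median 9.98; 1.31 ± 0.26, adjusted p = 0.0035) and kept its call without each array in turn, but its other kept probe differed by 0.41 and was not called.

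*Enho*, which encodes the secreted peptide adropin, differed by 0.45 ± 0.30 under PCN (adjusted p = 0.375) and by -1.38 under vehicle, where it was called. The difference between these, 1.84, was called (adjusted p = 0.023).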
